A study of Sus scrofa with 4 samples.

Results

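The genes described here are 10 WNT ligands of skin, WNT3, WNT3A, WNT4, WNT5A, WNT5B, WNT7B, WNT10A, WNT10B, WNT11 and WNT16. They were taken by gene name, as members of the WNT ligand family, from a table of 29837 named genes, in which all 10 were found. Earlier results of these data were known when they were chosen. The family had 19 genes in the table, and the other 9 are compared with the members further on. The cells came from the epidermis and hair of 2 juvenile pigs, 88R and 95R, that carried histone H2B joined to GFP at the start codon of a single LGR5 allele. Each pig gave 1 library of cells sorted for bright GFP, here LGR5-high, and 1 library of cells sorted for no GFP, here LGR5-negative. Cells with dim GFP were sorted apart and are not in either library. LGR5 marks stem cells of the lower hair follicle, and the LGR5-negative population takes in all live cells of the epidermal suspension without detectable GFP. The reporter follows nuclear protein that is diluted as cells divide, so the sort grades cells by LGR5 promoter activity and by division. Both populations carried the same reporter allele, and the model derives from edited fibroblast clones by nuclear transfer.

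WNT ligands are secreted glycoproteins that carry a lipid, which the acyltransferase PORCN adds and which the carrier WLS needs for taking them to the cell surface. At the receiving cell they bind Frizzled receptors. With the coreceptors LRP5 and LRP6 they stabilise beta-catenin, and with receptors such as ROR2 they act on cell polarity and movement without beta-catenin. In skin, WNT signals through beta-catenin start hair follicle formation and each new growth phase of the hair cycle, and they also sustain basal cells of the epidermis between follicles. WNT3, WNT3A, WNT7B, WNT10A and WNT10B are best known for signalling through beta-catenin. WNT5A, WNT5B and WNT11 are best known for signalling without it, and WNT4 and WNT16 have been placed in both classes.

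The libraries held between 30890232 and 32598670 counts. LGR5, whose reporter defined the sort, had 4551 and 6224 counts in LGR5-high and 36 and 109 in LGR5-negative of pigs 88R and 95R. Of 9 listed symbols for markers of differentiated epidermis 7 were in the table. The list holds LOR and LORICRIN, which are symbols of the same gene. By the edgeR test given below, 5 of the 7 were lower and 0 higher in LGR5-high, and LOR and IVL were not called. Of 8 listed markers of the outer root sheath and bulge 7 were in the table. Of these 5 were higher and 0 lower, and NFATC1 and KRT15 were not called. The shares over all tested genes were 22.0% called lower and 22.7% called higher. Markers of melanocytes, of Langerhans cells and leukocytes, and of endothelium summed to lower levels than either of these lists. Those of the hair matrix and inner root sheath, dermis and nerve are given further on. The summed level of 6 melanocyte markers was 61.9 CPM (counts divided by the scaled library size and given per 1e+06) in both LGR5-high libraries and 82.7 to 256 CPM in LGR5-negative. Langerhans cell and leukocyte markers summed to 13.99 to 14.3 CPM in LGR5-high and 87.9 to 127 CPM in LGR5-negative, with CD3E at 2 counts or fewer in every library. Endothelial markers summed to 6.11 to 7.48 CPM in LGR5-high and 20.8 to 20.9 CPM in LGR5-negative.

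Between the populations the WNT ligands divided by direction. WNT3, WNT16, WNT7B, WNT4, WNT3A, WNT5B and WNT10A were lower in LGR5-high, WNT11 and WNT5A were higher, and WNT10B did not pass the test. The differences ran from 12.8-fold lower for WNT3 to 89.4-fold higher for WNT11. The question of the comparison is how the LGR5-high cells differ in gene expression from the LGR5-negative cells, with the cells of dim GFP in neither. The quasi-likelihood test of edgeR was run on the raw counts of 15980 genes with Benjamini-Hochberg adjustment, and a gene was called at an adjusted p-value under 0.05. All 10 members passed the filter on low counts, and each did so in both populations. Of the 10 members 9 were called, against 44.7% of all tested genes. These were 7 called lower and 2 called higher, against 22.0% and 22.7% of all tested genes. The median log2 fold change, LGR5-high over LGR5-negative, was -1.80 over the 10 members and 0.02 over all tested genes. The libraries of the populations did not overlap for any of the 10 members, which was true of 76.6% of all tested genes, and for all 10 both pigs gave the same sign. With the methods' t-test in place of edgeR, run here on log2(CPM + 1) since the methods state no scale, 3 of the 9 calls were kept, those of WNT3, WNT11 and WNT16. In bulk libraries, fewer cells that express a gene and less RNA of that gene in each cell cannot be told apart.

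**Figure D1:**
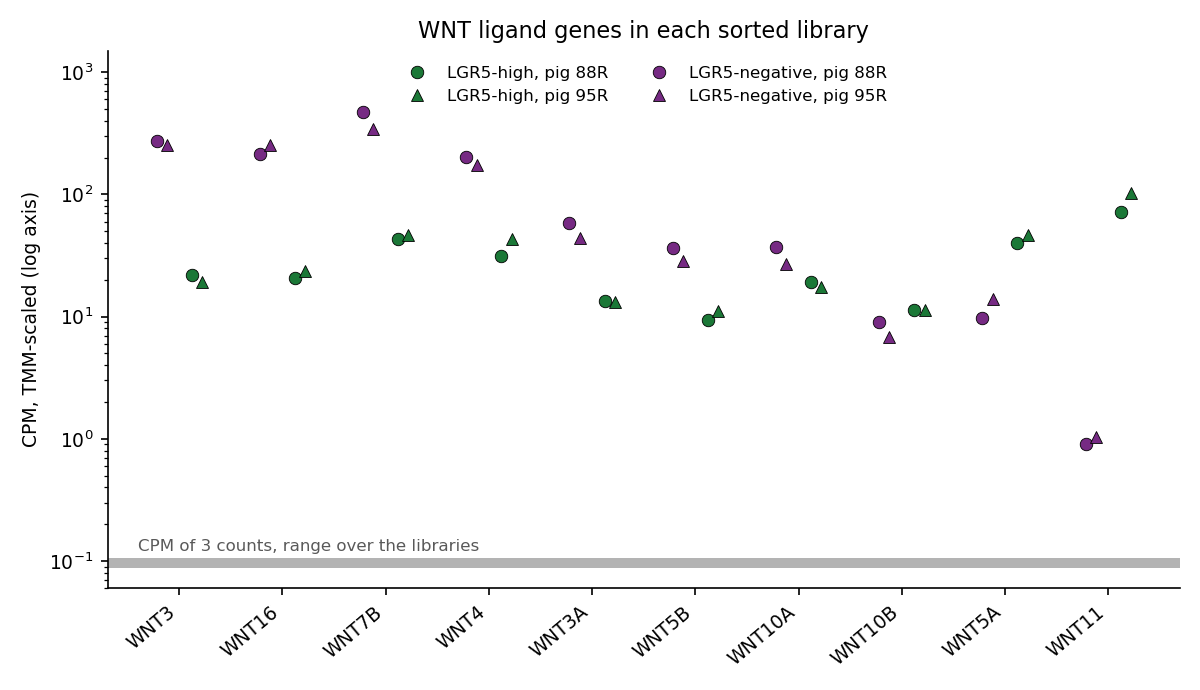
Level of each WNT ligand gene in the 4 libraries, as CPM scaled by TMM on a log axis, with genes ordered by fold change, colours for the populations and shapes for the pigs. The grey band is the CPM of 3 counts. All points lie above the band, and WNT11 in LGR5-negative, at 0.912 and 1.03 CPM, lies nearest to it.

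In absolute terms none of the 10 ligands was near the count floor of 3 counts, which corresponded to 0.0873 to 0.105 CPM depending on the library. The lowest value was that of WNT11 in LGR5-negative, with 26 and 31 counts in pigs 88R and 95R. Exact Poisson intervals, which cover counting error only, ran from 17.0 to 38.1 counts and from 21.1 to 44.0 counts for these values. The next lowest were 204 counts of WNT10B in LGR5-negative of pig 95R. The highest was WNT7B in LGR5-negative of pig 88R, with 13499 counts. Transcript lengths were not used here, so the levels of different ligands are not ranked against each other.

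Among ligands known for signalling through beta-catenin, WNT3 differed most. In LGR5-high WNT3 had 750 counts in pig 88R and 640 in pig 95R, and in LGR5-negative it had 7868 and 7648. Both LGR5-negative libraries were about level with each other, and both stood far above the LGR5-high libraries. In CPM this was 20.6 ± 1.73 (SD, n = 2 pigs) against 265 ± 16.3 (SD, n = 2), a 12.8-fold lower level on average (log2 fold change -3.68, standard error 0.106, adjusted p = 4.09e-05 in edgeR), with -3.66 within pig 88R and -3.70 within pig 95R. WNT3A, the closest relative of WNT3, moved in the same direction by less. It had 463 and 438 counts in LGR5-high and 1675 and 1331 in LGR5-negative. The level was 13.4 ± 0.148 CPM (SD, n = 2) in LGR5-high and 51.4 ± 10.4 CPM (SD, n = 2) in LGR5-negative. WNT3A was thus 3.85-fold lower, with a log2 fold change of -1.94 (standard error 0.162, adjusted p = 4.78e-04 in edgeR).

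WNT7B, which takes part in hair cycle activation in the mouse, gave 1481 and 1549 counts in LGR5-high of pigs 88R and 95R and 13499 and 10444 in LGR5-negative. The LGR5-high libraries of the pigs nearly matched, while the LGR5-negative library of pig 88R exceeded that of pig 95R. WNT7B had 45.0 ± 2.69 CPM (SD, n = 2) in LGR5-high and 410 ± 90.6 CPM (SD, n = 2) in LGR5-negative, and was 9.11-fold lower (log2 fold change -3.19, standard error 0.171, adjusted p = 1.30e-04 in edgeR). WNT10A, in which mutations cause ectodermal dysplasia with defects of hair, teeth and sweat glands in humans, had the smallest called difference. It had 659 and 573 counts in LGR5-high and 1056 and 817 in LGR5-negative, or 18.3 ± 1.29 and 32.0 ± 7.09 CPM (SD, n = 2 each). WNT10A was 1.75-fold lower (log2 fold change -0.81, standard error 0.175, adjusted p = 0.0135 in edgeR). Without the LGR5-high library of pig 95R the same test gave an adjusted p = 0.0852 in edgeR, and WNT10A was then not called.

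WNT10B, a ligand tied to the growth phase of the hair follicle, was the 1 member that did not pass. Its counts were 386 and 376 in LGR5-high and 258 and 204 in LGR5-negative of pigs 88R and 95R. The LGR5-high libraries were the higher ones in both pigs, at 11.3 ± 0.108 CPM (SD, n = 2) against 7.90 ± 1.63 CPM (SD, n = 2). The log2 fold change of WNT10B was 0.52 (standard error 0.190, adjusted p = 0.0722 in edgeR), with a 95% interval from 0.05 to 0.99. It was 0.31 within pig 88R and 0.75 within pig 95R. With the pig as a replicate block WNT10B passed (log2 fold change 0.53, adjusted p = 0.0125 in edgeR), so that 3 members were higher and 7 lower, where 28.5% and 27.2% of all tested genes were called. It also passed with library size only, with upper quartile scaling, and without the LGR5-negative library of pig 88R (adjusted p = 0.0307 in edgeR).

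WNT4 and WNT16, placed in both classes, were also lower in LGR5-high. WNT16, which is known best for maintaining cortical bone, had 706 and 780 counts in LGR5-high and 6054 and 7681 in LGR5-negative of pigs 88R and 95R. The spread between pigs was small beside the distance between populations. WNT16 had 22.1 ± 2.17 CPM (SD, n = 2) in LGR5-high and 233 ± 29.5 CPM (SD, n = 2) in LGR5-negative, and was 10.6-fold lower (log2 fold change -3.40, standard error 0.132, adjusted p = 6.62e-05 in edgeR). WNT4, which acts in kidney and ovary development, had 1086 and 1435 counts in LGR5-high and 5807 and 5235 in LGR5-negative. It had 37.5 ± 8.38 CPM (SD, n = 2) in LGR5-high and 189 ± 21.6 CPM (SD, n = 2) in LGR5-negative. WNT4 was 5.03-fold lower (log2 fold change -2.33, standard error 0.174, adjusted p = 3.32e-04 in edgeR). Of the 10 ligands WNT4 had the widest gap between pigs, 0.69 on the log2 scale, from -2.69 for pig 88R to -1.99 for pig 95R.

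The ligands known for signalling without beta-catenin went both ways. WNT11, which steers cell movement in the embryo, gave 2462 and 3388 counts in LGR5-high of pigs 88R and 95R, and 26 and 31 in LGR5-negative. It was present in LGR5-high at 87.1 ± 21.9 CPM (SD, n = 2) and near 1 CPM in LGR5-negative, at 0.969 ± 0.0802 CPM (SD, n = 2). WNT11 was 89.4-fold higher (log2 fold change 6.48, standard error 0.253, adjusted p = 6.62e-05 in edgeR), and within pigs 88R and 95R the log2 difference was 6.20 and 6.56. On the log2(CPM + 1) scale the difference was 5.46, since the added 1 is about as large as the level in LGR5-negative. WNT5A, a ligand of ROR2, had 1381 and 1551 counts in LGR5-high and 275 and 420 in LGR5-negative. WNT5A was thus well measured in both populations, at 43.6 ± 4.79 CPM (SD, n = 2) and 11.8 ± 3.004 CPM (SD, n = 2), and was 3.70-fold higher in LGR5-high (log2 fold change 1.89, standard error 0.198, adjusted p = 0.00103 in edgeR). WNT5B, the paralog of WNT5A, was lower instead. It had 323 and 365 counts in LGR5-high and 1029 and 858 in LGR5-negative, or 10.2 ± 1.17 and 32.3 ± 5.46 CPM (SD, n = 2 each). The log2 fold change of WNT5B was -1.66 (standard error 0.169, adjusted p = 9.15e-04 in edgeR).

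**Figure D2:**
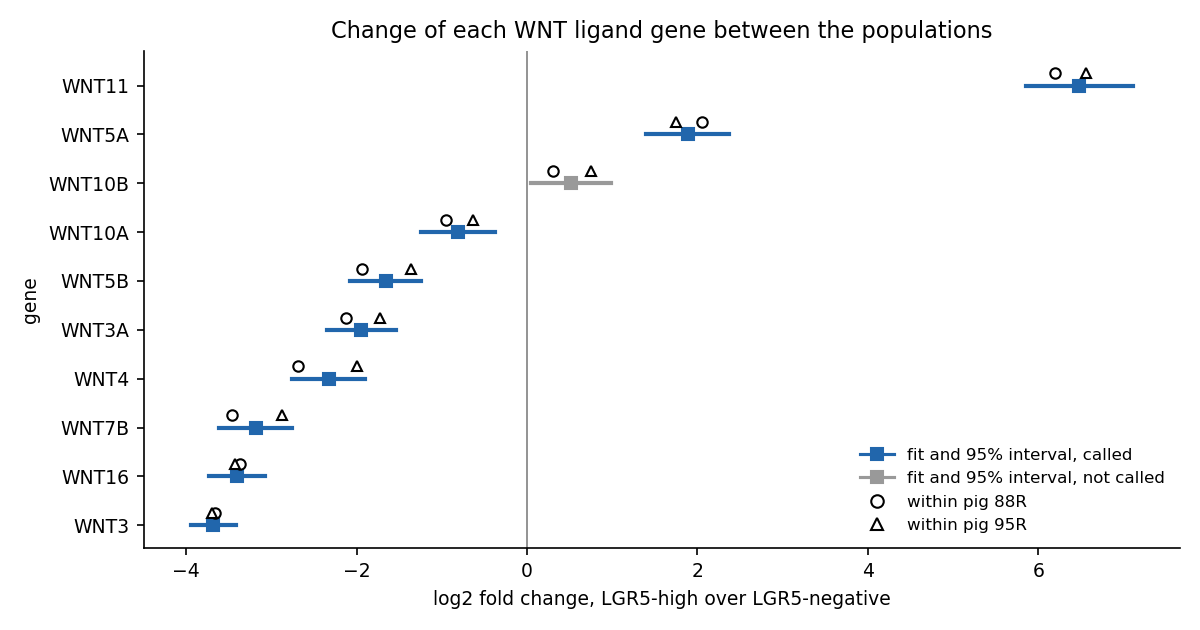
Log2 fold change of each WNT ligand gene, LGR5-high over LGR5-negative, with squares for the edgeR fit, bars for its 95% interval and open symbols for the difference within each pig. Blue genes were called at an adjusted p-value under 0.05, and WNT10B, in grey, was not, although its interval runs from 0.05 to 0.99.

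The difference between paralogs can be seen within each library, where the ratio of their counts does not depend on scaling between libraries. The counts of WNT5A were 4.28 and 4.25 times those of WNT5B in LGR5-high of pigs 88R and 95R, and 0.267 and 0.490 times in LGR5-negative. The leading paralog by counts was therefore WNT5A in LGR5-high and WNT5B in LGR5-negative of both pigs, and the ratio changed 16.0-fold within pig 88R and 8.68-fold within pig 95R. WNT10A had 1.71 and 1.52 times the counts of WNT10B in LGR5-high, and 4.09 and 4.00 times in LGR5-negative. The balance of this pair shifted toward WNT10B in LGR5-high. WNT3 had 1.62 and 1.46 times the counts of WNT3A in LGR5-high and 4.70 and 5.75 times in LGR5-negative. WNT7B and its paralog WNT7A were both lower in LGR5-high, and their ratio was 23.9 and 32.96 in LGR5-high and 45.1 and 42.5 in LGR5-negative. In each of these 4 pairs the ratios of the populations did not overlap. With 2 libraries in each population this is common: the CPM of 76.6% of all tested genes did not overlap either. The ratios of WNT7B to WNT7A rest on 62 and 47 counts of WNT7A in LGR5-high. None of these ratios was tested.

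Some WNT genes lie in neighbouring pairs in the genome, and in the RefSeq annotation of Sscrofa11.1, used here for gene order only, 4 members were the next protein-coding gene to another WNT gene. WNT3A neighbours WNT9A, and the pair went in opposite directions. WNT9A had 2182 and 1961 counts in LGR5-high and 1236 and 1014 in LGR5-negative (log2 fold change 0.68, adjusted p = 0.0118 in edgeR), and this call was lost without the LGR5-high library of pig 88R and with the methods' t-test. The counts of WNT3A were 0.212 and 0.223 times those of WNT9A in LGR5-high, and 1.36 and 1.31 times in LGR5-negative. WNT10A neighbours WNT6, which had 327 and 368 counts in LGR5-high and 203 and 214 in LGR5-negative (log2 fold change 0.54, adjusted p = 0.0423 in edgeR). The call of WNT6 was lost when any of the 4 libraries was left out, with DESeq2 with or without the replicate block, and with the methods' t-test. It was also lost when all genes with at least 1 count were tested. WNT3 neighbours WNT9B, which had 9 counts or fewer in every library, and WNT10B neighbours and overlaps WNT1, which had 3 counts or fewer. WNT3 and WNT10B, each at 204 counts or more in every library, thus stood beside neighbours at or near the floor.

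**Figure D3:**
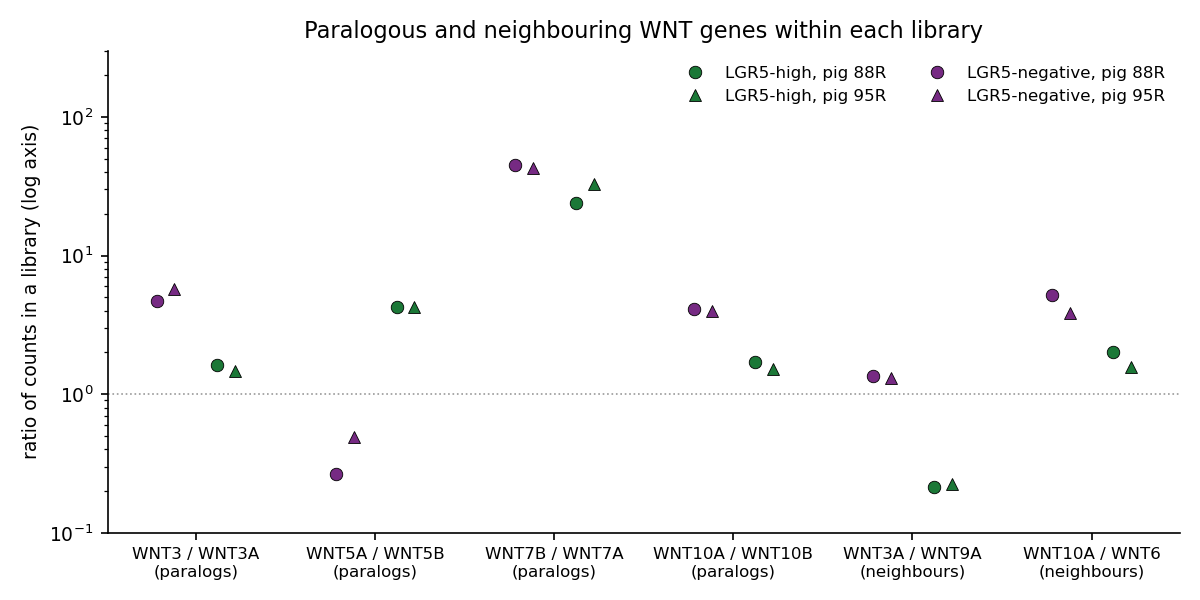
Ratio of the counts of paralogous and of neighbouring WNT genes within each library, on a log axis, with colours for the populations and shapes for the pigs. The dotted line marks equal counts, and the pairs WNT5A with WNT5B and WNT3A with WNT9A cross it between the populations.

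Annotated overlaps with other genes also bear on the counts, since the strand setting of the counting is not given in the sources used here. WNT5A overlaps the lncRNA gene LOC102162847, which had 34 and 36 counts in LGR5-high and 7 and 13 in LGR5-negative. WNT7B overlaps the lncRNA gene LOC110260613, with 4 and 3 counts in LGR5-high and 23 and 13 in LGR5-negative. Both lncRNA genes were called in the same direction as the ligand they overlap, at counts far below it. WNT5B overlaps FBXL14, an F-box protein gene, which had 826 and 798 counts in LGR5-high and 845 and 792 in LGR5-negative and was not called. Whether reads were shared in these pairs was not tested.

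The makeup of the ligand reads differed between the populations. All 10 ligands together had 9697 and 11095 counts in LGR5-high of pigs 88R and 95R, and 37547 and 34669 in LGR5-negative. Of the ligand counts, WNT11 held 25.4% (exact 95% binomial interval 24.5% to 26.3%) and 30.5% (29.7% to 31.4%) in LGR5-high, and 0.0692% (0.0452% to 0.101%) and 0.0894% (0.0608% to 0.127%) in LGR5-negative. WNT5A held 14.2% and 13.98% in LGR5-high and 0.732% and 1.21% in LGR5-negative. These intervals cover counting error only. Against this, WNT7B went from 36.0% and 30.1% of the ligand counts in LGR5-negative to 15.3% and 13.96% in LGR5-high. WNT3 went from 21.0% and 22.1% to 7.73% and 5.77%, and WNT16 from 16.1% and 22.2% to 7.28% and 7.03%. The share of WNT3A was nearly the same in all libraries, between 3.84% and 4.77%, although its level was lower in LGR5-high. Shares of counts weight each gene by its length and are read here only for the same gene across libraries.

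**Figure D4:**
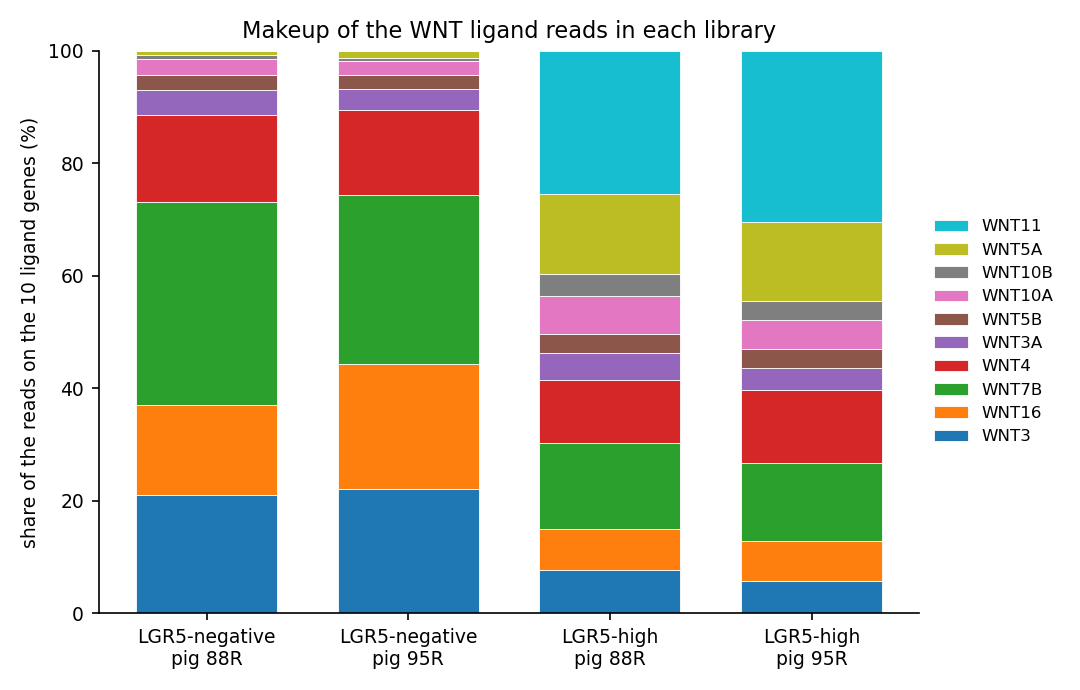
Share of each gene in the counts of the 10 WNT ligand genes, in percent, with 1 bar for each library and genes stacked in the order of their fold change. WNT11 and WNT5A hold the upper part of both LGR5-high bars and are barely visible in the LGR5-negative bars, where WNT3, WNT16 and WNT7B hold most of the counts.

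The level of a ligand in the population where it was lower was set beside markers of the 2 populations. WNT3 in LGR5-high was at 7.90% of its LGR5-negative CPM in pig 88R and at 7.65% in pig 95R, and WNT16 was at 9.67% and 9.29%. Markers of differentiated epidermis in the same libraries were at similar percentages, with KRT1 at 8.43% and 8.54% and KRT10 at 8.93% and 9.62%. KRTDAP and DSC1 lay between 10.1% and 11.5%, SBSN at 32.5% and 36.5%, and LOR and IVL were not called. WNT7B was at 9.09% in pig 88R and 13.6% in pig 95R. WNT4, WNT3A, WNT5B and WNT10A lay higher, between 15.5% for WNT4 in pig 88R and 64.2% for WNT10A in pig 95R. WNT11 in LGR5-negative was at 1.27% and 1.00% of its LGR5-high CPM in pigs 88R and 95R. The follicle markers LGR5, LHX2 and TBX1 were at 0.954% to 1.91% in the same libraries, SOX9 at 3.78% and 5.76%, TCF7L1 at 16.4% and 12.6%, and NFATC1 and KRT15 were not called. With the replicate block KRT15 was called higher (log2 fold change 0.73, adjusted p = 2.13e-06 in edgeR). WNT5A in LGR5-negative, at 24.0% and 29.6%, was above the follicle markers called without the block. The part that cells of one population in the other sort had in these levels was not tested.

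**Figure D5:**
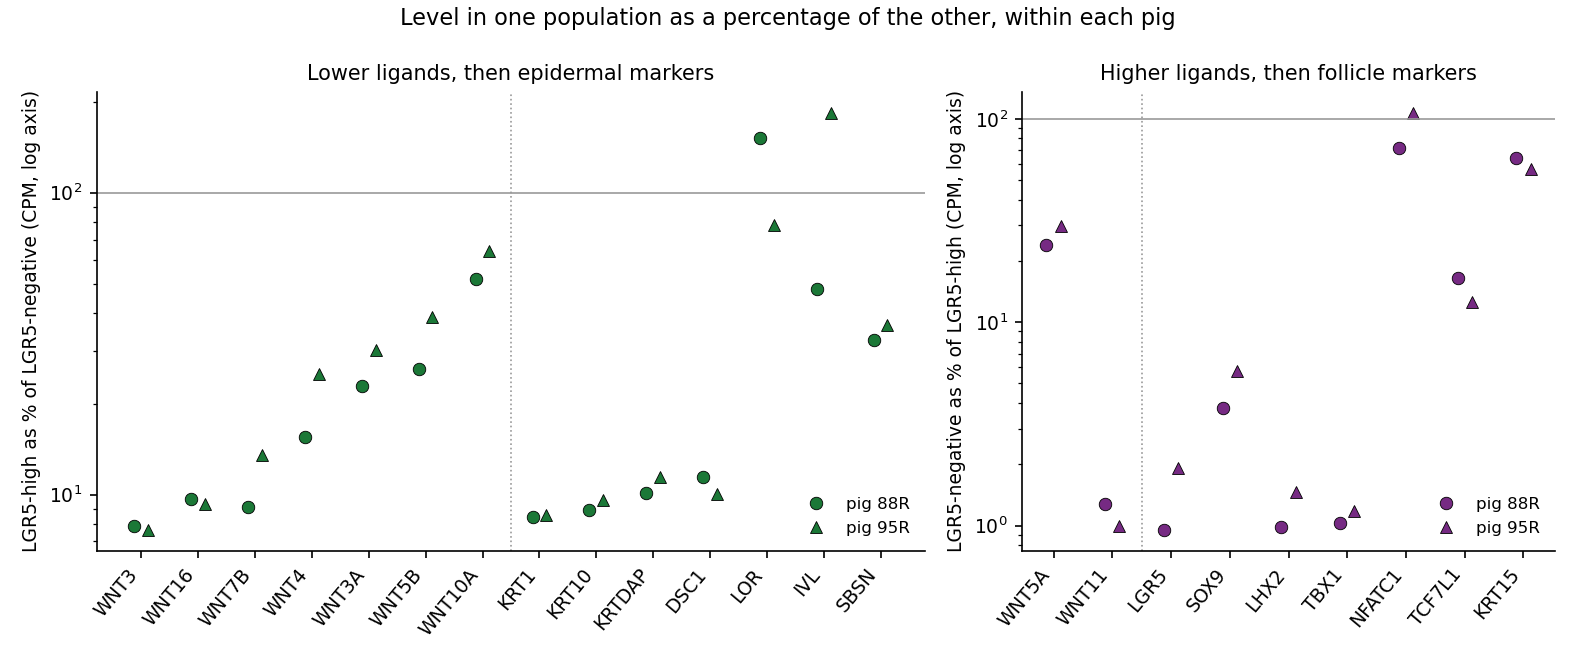
CPM in one population as a percentage of the other within each pig, on log axes, for ligands called lower beside markers of differentiated epidermis (left) and for ligands called higher beside markers of the outer root sheath and bulge (right). The horizontal line marks equal levels. WNT3 and WNT16 lie at 7.65% to 9.67%, level with KRT1 and KRT10, and WNT11 lies at 1.00% to 1.27%, level with TBX1.

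By the likeness of its pattern over the 4 libraries, measured as the Euclidean distance between log2 CPM centred on each gene's mean, WNT3 was nearest to ADH1C, KRT1 and MFAP3L, at distances of 0.0963, 0.143 and 0.180. Over 4 libraries in 2 populations this likeness mostly reflects a fold change of similar size. The log2 fold changes were -3.61 for ADH1C, an alcohol dehydrogenase gene, -3.56 for the suprabasal keratin gene KRT1 and -3.52 for MFAP3L.

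Markers of other cell types were called in both directions. Over all tested genes 22.7% were called higher and 22.0% lower. Of 10 listed genes of the hair matrix, shaft and inner root sheath 8 were in the table. Of these KRT25, KRT27, TCHH, HOXC13 and FOXN1 were higher in LGR5-high, while GATA3 and DLX3 were lower, with log2 fold changes of -0.90 and -0.75. Their summed level was 1413 to 1772 CPM in LGR5-high and 892 to 899 CPM in LGR5-negative. Of 6 dermal papilla markers, HHIP was higher, with 96 and 116 counts in LGR5-high and 10 and 13 in LGR5-negative, and CORIN was not called. RSPO3, with 1 and 1 counts in LGR5-high and 6 and 13 in LGR5-negative, and SOX2, with 3 and 5 against 0 and 0, were too low to be tested, and ALX4 and PROM1 were at 3 counts or fewer in every library. The dermal papilla markers summed to 3.55 to 4.39 CPM in LGR5-high and 1.26 to 1.46 CPM in LGR5-negative, of which HHIP alone held 2.79 and 3.51 CPM in LGR5-high and 0.351 and 0.430 CPM in LGR5-negative. Dermal fibroblast markers summed to 233 to 453 CPM in LGR5-high and 225 to 347 CPM in LGR5-negative, with PDGFRA at 4 and 3 counts in LGR5-high and 21 and 21 in LGR5-negative. Of 7 fibroblast markers 4 were lower and 1, COL1A1, was higher in LGR5-high. COL1A1 and DCN held most of the summed level. COL1A1 had 142 and 331 CPM in LGR5-high of pigs 88R and 95R and 94.0 and 37.3 CPM in LGR5-negative. The log2 difference of COL1A1 was 0.60 within pig 88R and 3.15 within pig 95R. DCN, which was called lower, had 83.4 and 112 CPM in LGR5-high and 182 and 163 CPM in LGR5-negative. Of 5 nerve and Schwann cell markers, S100B and NGFR were higher and SOX10 was lower, and the list summed to 58.9 to 78.9 CPM in LGR5-high and 5.44 to 10.8 CPM in LGR5-negative. Their part in the levels of WNT11 and WNT5A was not tested. Of 6 melanocyte markers 4 were lower in LGR5-high, and DCT and MITF were not called. Of 5 Langerhans cell and leukocyte markers that the table held, 3 were lower, and AIF1 was higher, with 215 and 273 counts in LGR5-high and 42 and 54 in LGR5-negative (log2 fold change 2.15, adjusted p = 0.00163 in edgeR). Of 5 endothelial markers 4 were lower and 0 higher. Some of these marker genes passed the filter on low counts through LGR5-negative only, so they could hardly have been called higher. They were CDH5, with 1 and 1 counts in LGR5-high of pigs 88R and 95R, KDR, with 5 and 1, and PTPRC, with 7 and 4. CD207, with 9 and 7, PDGFRA, with 4 and 3, and LUM, with 5 and 0, passed in the same way. The part of melanocytes, Langerhans cells, leukocytes and endothelial cells in the levels of the ligands was not tested either.

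Of the other 9 WNT genes, 5 were too low to be tested. WNT8A had 0 counts in all libraries, WNT1 and WNT2 had 3 counts or fewer, and WNT8B and WNT9B had 9 or fewer. Among the 4 tested, WNT6 and WNT9A were higher in LGR5-high, with the lost calls given above, and WNT7A was lower. The call of WNT7A was lost with the methods' t-test. WNT7A had 62 and 47 counts in LGR5-high and 299 and 246 in LGR5-negative (log2 fold change -2.53, standard error 0.249, adjusted p = 8.27e-04 in edgeR), in the direction of its paralog WNT7B. WNT2B had 34 and 28 counts in LGR5-high and 9 and 16 in LGR5-negative and was not called (adjusted p = 0.0784 in edgeR).

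Of 9 genes for the acylation and secretion of WNT ligands, all tested, edgeR called 2 lower and 0 higher, and their median log2 fold change was -0.13. Over all tested genes 22.0% were called lower and 22.7% higher, so the share called lower was near that of all genes. VPS26A was called higher with library size only, where 0 were lower, and with upper quartile scaling. PORCN had 427 and 451 counts in LGR5-high and 327 and 380 in LGR5-negative, a log2 difference of 0.12 that was not called (adjusted p = 0.531 in edgeR). WLS had a log2 fold change of -0.43 (adjusted p = 0.0171 in edgeR) and the cargo receptor gene TMED5 one of -0.62 (adjusted p = 0.0149 in edgeR). Both of these calls were lost with library size only as the scaling, with the methods' t-test and without the LGR5-high library of pig 95R. That of WLS was also lost without the LGR5-negative library of pig 95R. The tested enzymes that inactivate WNT ligands outside the cell were higher in LGR5-high. NOTUM, which removes the lipid, had 126 and 153 counts in LGR5-high and 15 and 28 in LGR5-negative (log2 fold change 2.502, adjusted p = 0.00318 in edgeR). TRABD2B, a protease that cleaves the ligand's amino terminus, had 1234 and 1339 counts in LGR5-high and 66 and 95 in LGR5-negative (log2 fold change 3.80, adjusted p = 1.02e-04 in edgeR). With the methods' t-test the call of NOTUM was lost and that of TRABD2B was kept. TRABD2A had 7 counts or fewer and was not tested.

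On the receiving side, LGR5-high had 11 of 18 receptor and coreceptor genes higher and 3 lower, with a median log2 fold change of 1.19. One of the 11, FZD5, was close to the threshold (log2 fold change 0.48, adjusted p = 0.0490 in edgeR). Its call was lost with the DESeq2 size factors, with limma-voom and with the methods' t-test, among other alternatives. Over all tested genes 22.7% were called higher and 22.0% lower. Among the called genes the fitted value was highest for ROR1, at 3.72 (standard error 0.401), and lowest for FZD9, at -1.91. ROR1 had 92 and 138 counts in LGR5-high and 7 and 8 in LGR5-negative, so it passed the filter through LGR5-high only, and with at least 10 counts required in every library it was not tested. The methods' t-test did not call ROR1 either. FZD1, at 3.65, and ROR2, at 3.64, lay within the standard error of ROR1. Of 12 secreted antagonists and Kremen genes, 10 were tested, 5 were higher and 2 were lower. The largest changes were those of DKK3, at 5.98, and SFRP5, at -2.56. WIF1, with 2 and 7 counts in LGR5-negative, DKK4, with 4 and 4, and SFRP2, with 4 and 13, passed the filter through LGR5-high only. With at least 10 counts required in every library they were not tested, and 3 of the antagonists were higher in place of 5. Of 10 feedback and target genes of beta-catenin signalling, 5 were higher and 1 was lower, with a median of 0.46. Without the LGR5-high library of pig 88R, 3 were higher, and LEF1 and APCDD1 lost their calls. With the methods' t-test 1 target gene was higher and 0 lower, 2 antagonists were higher and 0 lower, and 6 receptor genes were higher and 1 lower. TCF7 changed most, at 2.78, and AXIN2 was the 1 lower gene, at -0.41 (adjusted p = 0.0226 in edgeR). The call of AXIN2 was lost with library size only, with upper quartile scaling, and without the LGR5-high library of pig 88R, the LGR5-negative library of pig 88R or the LGR5-high library of pig 95R.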

How the data were processed

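RNA of sorted LGR5-high and LGR5-negative cells was sequenced as poly(A) paired-end libraries, 1 per population and pig. The deposited values are raw read counts for each gene symbol, not normalized, and all 4 columns were used. The submitters' processing notes name Trimmomatic 0.36, STAR 2.5.2b and featureCounts of Subread 1.5.2. The genome build, annotation, strand setting and treatment of reads matching several genes are not given in the sources used here, and such treatment could move counts between similar WNT genes. The 1 entry without a name, 0.360% to 0.626% of counts, was left out. All 29837 named genes matched a RefSeq symbol of Sscrofa11.1, used for gene order only.

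The test was run in edgeR 4.0.16 under R 4.3.3 (filterByExpr with a minimum count of 10, TMM scaling, population as the only term, 2-sided quasi-likelihood test, Benjamini-Hochberg adjustment). Standard errors are the log2 fold change divided by the square root of the test's F value. Levels in CPM are means ± SD of 2 pigs, and differences within a pig used a prior count of 2. Chi-square per degree of freedom between the libraries of a population was 20.3 in LGR5-high and 23.1 in LGR5-negative, above counting noise. Libraries were paired by pig from the shared animal number in the labels, and the check of this pairing, a correlation across genes between the deviations of a pig's 2 libraries, gave 0.370. Alternatives were the replicate block, other scalings and filters, DESeq2 1.42.0 with and without the block, voom of limma 3.58.1, Student's t-test, which the study's methods name without a scale, on log2(CPM + 1), and leaving out each library. Scripts were tested on simulated data. Plots were drawn with matplotlib 3.10.9.

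The members, the pathway and marker lists and the tests were chosen with earlier results of these data known. The genes named are the 10 members, called genes of the other WNT, secretion and inactivation lists, the largest called change in each direction of the receptor, antagonist and target lists, and the 3 genes nearest in pattern to the member with the smallest p-value. WNT neighbours and overlapping genes, ROR1's counts, PORCN, VPS26A, FZD1, ROR2, WIF1, DKK4, LEF1, APCDD1, TRABD2A, WNT2B and the marker values, and the genes called with the block alone, were named after their values had been seen. FZD5 was named in the same way.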

Additional observations from a re-analysis of the deposited data

How the results depend on the processing

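The members' directions did not change under any alternative run, and the fold changes of 3 members, WNT3, WNT11 and WNT16, stayed called in all of them. Beside 2 higher and 7 lower members and 3632 higher and 3508 lower genes in all, the methods' t-test, with log2(CPM + 1) as a scale chosen here, called 1 and 2 members and 544 and 502 genes, and 8 members had an unadjusted p-value under 0.05 in it. Scaled by library size only, 5473 were higher and 2326 lower. The median over all tested genes, on the log2 scale, was then 0.24, against 0.02 with TMM and 0.11 with upper quartile scaling. Leaving out 1 library gave 2279 to 3169 higher and 2139 to 3004 lower genes, 2 or 3 higher members and 6 or 7 lower members. The lone library of a population was then assumed to vary like the other population's, and the counts moved by over 1.5 times without the LGR5-high library of pig 88R (2340 higher) or of pig 95R (2279 higher, 2139 lower). The replicate block (paired by pig) called 3 higher and 7 lower members and changed no other member's call than that of WNT10B. Among the listed genes that were not members, the block also called WNT2B, SFRP2, KRT15, PI16 and MITF higher and TMED2, KREMEN2, TNFRSF19, DCT and PECAM1 lower, and no call was lost. With limma-voom, DESeq2 with or without the block, both other filters and the DESeq2 size factors, the same 9 members were called. The alternatives with another length were not run, since no transcript or coding lengths were used here. Every member had 26 counts or more in every library. The number of pigs, 2, limits the precision of small differences such as those of WNT10A and WNT10B.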
